A study of Mus musculus with 6 samples.

Results

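The respiratory chain genes described here are 63 of the 18174 rows of a mouse lung RNA sequencing table, chosen by a rule on gene symbols. The rule took the Sdha to Sdhd genes of complex II, the Uqcr genes and Cyc1 of complex III, cytochrome c (Cycs), the numbered Cox genes of complex IV, the Atp5 genes of complex V, and the mitochondrially encoded mt-Co, mt-Cytb and mt-Atp genes. The rule itself uses no measured value, though it was written with earlier results of these data known. Of the 63 genes, 57 lie on 19 nuclear chromosomes and 6 on mitochondrial DNA. By role they comprise 39 nuclear subunits including cytochrome c, the 6 mitochondrial subunits, 6 subunit isoforms of complex IV, 9 assembly factors of complex IV, the supercomplex factor Cox7a2l, and 2 further genes with Atp5 names.

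All 6 libraries came from lung of wild type male C57BL/6J mice. The 3 cold libraries followed 6 h at 4 °C, and the 3 control libraries followed housing at room temperature, of which the labels used here state neither the degrees nor the animals' age. The series title places the experiment in a study of nerve and epithelium in the lung and of heat production by fat. The labels call the libraries biological replicates without naming the animal behind each, so p-values measure the spread between these libraries, which may in part be technical.

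The respiratory chain passes electrons from nutrients to oxygen and stores the energy as a proton gradient across the inner mitochondrial membrane. Complex II (succinate dehydrogenase) feeds electrons to ubiquinone, complex III passes them to cytochrome c, complex IV (cytochrome c oxidase) gives them to oxygen, and complex V (ATP synthase) uses the gradient to make ATP. Complex II is wholly nuclear encoded, whereas complexes III, IV and V combine subunits from nuclear genes with subunits made inside the mitochondrion. In lung, ciliated and alveolar type 2 cells are among the types known to be rich in mitochondria.

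Recovered depth was 32.7 to 48.7 M reads per library. Pearson's r across genes was 0.961 to 0.986 between room temperature libraries, 0.989 to 0.991 between cold libraries and 0.784 to 0.890 from one group to the other. Room temperature replicate 3 stood nearer the cold group than its 2 partners, at -44.0 on the first principal component against -81.3 and -94.2, with cold libraries at 69.3 to 77.9. The libraries also differed in markers of lung cell types. Summed over 12 endothelial markers, scaled RPKM was 6.40 to 72.7 at room temperature and 350.4 to 379.4 in the cold, and none of these markers was at 0 in every library. The alveolar type 2 marker Sftpc read 87.4, 47.5 and 647.2 at room temperature and 2134.7, 2846.5 and 2145.1 in the cold. Against these, 10 club and secretory markers summed to 18994 to 26218 at room temperature and 4723 to 5438 in the cold. With limma, 12 of 12 endothelial, 7 of 10 alveolar type 2 and 6 of 8 alveolar type 1 markers rose, and 10 of 10 club and secretory markers fell. The alveolar lists did not move as one. The surfactant genes Sftpa1, Sftpb and Sftpd passed in neither direction (log2 changes of -0.12, -0.08 and 0.02), and the alveolar type 1 marker Pdpn fell (-0.65). Lung markers were thus present in every library, but endothelial markers such as Pecam1 and Cdh5 were low at room temperature, at 0.109 to 0.585 and 0.0935 to 0.896 scaled RPKM.

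The subunits of complexes II to V were lower in the cold libraries as a body. Of the 62 respiratory chain genes tested, 53 fell and 3 rose at an adjusted p under 0.05 (limma with Benjamini-Hochberg adjustment over all genes tested), and 6 passed in neither direction. The background was high: of 15238 genes tested, 35.0% fell and 35.5% rose, together 70.5%. Cold and room temperature libraries did not overlap, with cold lower, in 55 of the 62 genes, against 37.8% of all genes tested, and with cold higher in 4, against 38.4%. The median log2 change over the 62 genes was -0.96, beside 0.00 over all genes tested. A fall of at least 1 on the log2 scale was reached by 28 genes, against 16.3% of all genes. In bulk tissue, fewer cells of a type and less RNA per cell cannot be told apart, and the part of the shifted cell type markers in these counts was not tested.

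All 39 nuclear subunits, cytochrome c included, fell, by 0.54 (Cox7c) to 1.63 (Atp5b) on the log2 scale, and the groups did not overlap for any of them. Without composition scaling, which moves the median of all genes tested to 0.29, 37 of the 39 still fell and Atp5h and Cox7c did not pass, with a median of -0.65 in place of -0.97. The authors' deposited table called far fewer: at its q under 0.05 it had 12 of the 63 genes lower and 2 higher, against 12.0% and 12.7% of all rows. Its fold changes follow scaling by depth only, whereas the test and scaling behind its q-values are unknown. The 12 lower in the authors' deposited table were Uqcr11, Uqcrq, Uqcrc1, Atp5b, Atp5g3, Cox4i1, Cox5a, Cox6a2, Cox7a1, Cox8b, mt-Co2 and mt-Co3.

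**Figure D1:**
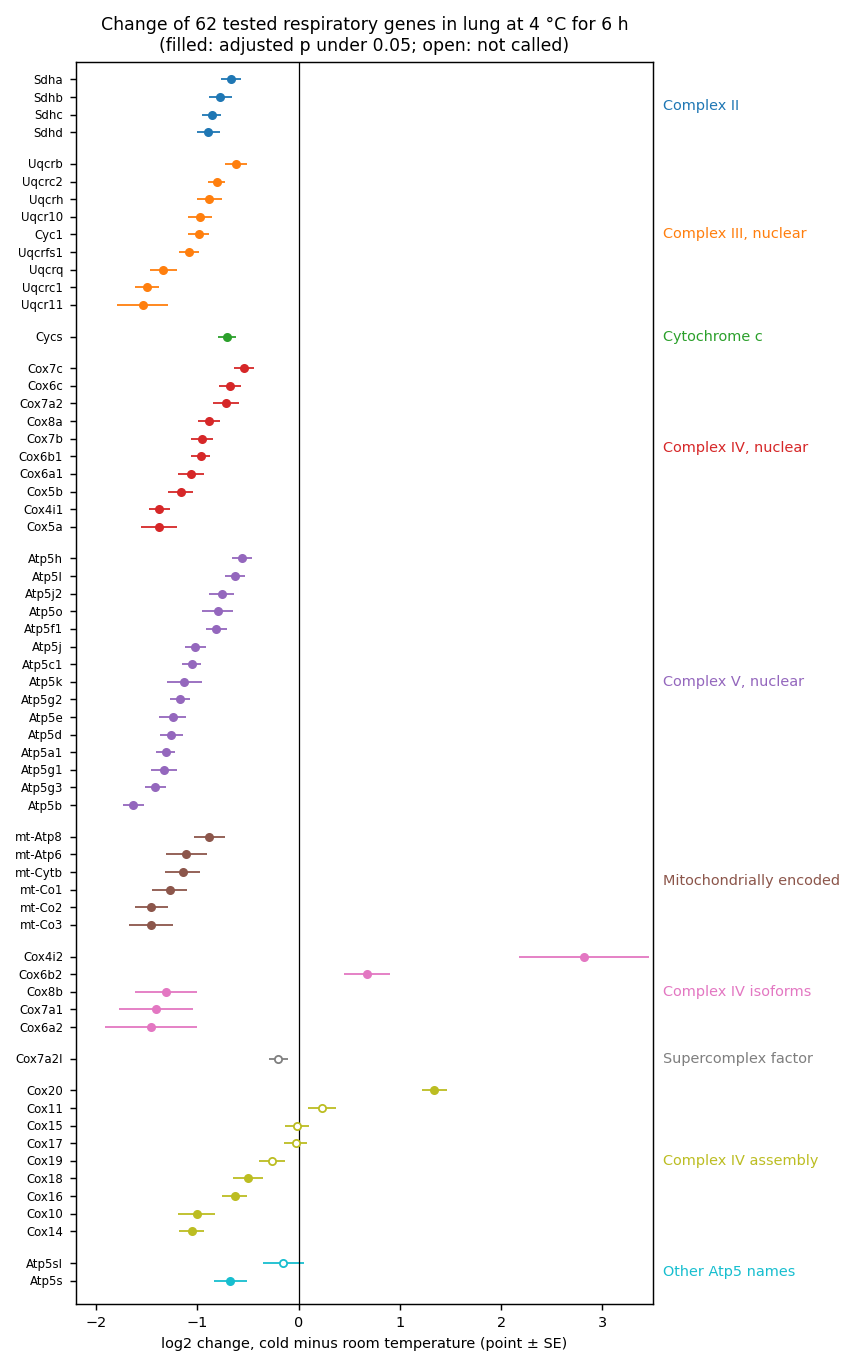
Log2 change, cold minus room temperature, with its standard error from limma (horizontal axis) for the 62 tested genes, arranged by role, with filled points for an adjusted p under 0.05. Every nuclear and mitochondrial subunit lies below 0, whereas the isoforms and assembly factors spread from -1.46 (Cox6a2) to 2.82 (Cox4i2).

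The plot of log2 change by gene separates the subunits, which all lie on the same side of 0, from the isoforms and assembly factors, which lie on both. In what follows, values are scaled RPKM, the deposited RPKM divided by the library's scaling factor, and are given in the order of replicates 1, 2 and 3. RPKM counts reads per kilobase of gene span, introns included, so levels are compared between genes only after conversion to exon length. Errors after ± are standard errors of the log2 change, and coordinates are of GRCm38, the assembly of mm10.

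Complex II oxidises succinate in the citrate cycle and hands the electrons to ubiquinone, and all 4 of its genes fell. Sdha (chr13:74322254-74350280), the flavoprotein that binds succinate, read 4.11, 3.65 and 4.16 at room temperature and 2.34, 2.52 and 2.61 in the cold (log2 change -0.67 ± 0.10, adjusted p = 5.7e-04 by limma). Sdhb, which carries the iron-sulfur clusters, read 1.83, 1.72 and 1.82 at room temperature and 1.15, 0.903 and 1.06 in the cold (log2 change -0.78 ± 0.11, adjusted p = 5.9e-04 by limma). For both genes every cold library lay below every room temperature library, and the room temperature values were close to each other. The groups were likewise apart for the membrane anchors Sdhc and Sdhd. Sdhc read 3.14, 2.79 and 2.83 at room temperature and 1.62, 1.68 and 1.505 in the cold (log2 change -0.86 ± 0.09, adjusted p = 1.8e-04 by limma). Sdhd read 8.29, 9.13 and 8.32 at room temperature and 4.05, 5.07 and 4.70 in the cold (log2 change -0.89 ± 0.11, adjusted p = 2.8e-04 by limma). None of the 4 passed in the authors' deposited table, where q ranged from 0.232 to 0.398. The changes, -0.67 to -0.89, made complex II the group of subunits with the smallest median change, -0.82.

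In complex III all 9 nuclear subunits fell, with a median of -0.99. Uqcrc1 (chr9:108936633-108949623), a core protein, read 8.64, 8.53 and 7.47 at room temperature and 3.31, 2.81 and 2.56 in the cold (log2 change -1.496 ± 0.12, adjusted p = 6.4e-05 by limma). Uqcr11 (chr10:80402997-80406830), the smallest subunit of the complex, read 7.36, 12.5 and 6.06 at room temperature and 3.08, 2.68 and 2.51 in the cold (log2 change -1.54 ± 0.25, adjusted p = 0.0012 by limma). Cold libraries were below the room temperature libraries in both genes, and Uqcr11 had the wider spread within groups. Cyc1, the cytochrome c1 that passes electrons to cytochrome c, read 28.3, 30.1 and 27.9 at room temperature and 15.4, 15.2 and 12.8 in the cold (log2 change -0.99 ± 0.10, adjusted p = 1.4e-04 by limma). Uqcrfs1, the Rieske iron-sulfur protein, read 16.3, 14.7 and 15.3 at room temperature and 6.75, 7.89 and 7.08 in the cold (log2 change -1.08 ± 0.10, adjusted p = 8.7e-05 by limma). Uqcrq, a small supernumerary subunit, read 18.2, 18.9 and 14.7 at room temperature and 7.41, 6.84 and 5.92 in the cold (log2 change -1.34 ± 0.13, adjusted p = 1.2e-04 by limma). The groups stood apart in each of these. The remaining nuclear subunits, Uqcrb, Uqcrc2, Uqcrh and Uqcr10, fell by 0.62 to 0.97. Cycs (chr6:50562563-50566538), the mobile electron carrier that also takes part in apoptosis, read 10.1, 9.01 and 9.92 at room temperature and 5.68, 5.98 and 5.99 in the cold (log2 change -0.71 ± 0.09, adjusted p = 3.5e-04 by limma), again with no overlap. A copy of 99.9% identity over 946 bases, the gene Gm10053 on chromosome 19, could share its reads.

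All 10 ubiquitous nuclear subunits of complex IV fell, with a median of -0.96. Cox4i1 (chr8:120668222-120674207), the common form of subunit 4, read 32.3, 30.8 and 27.8 at room temperature and 12.1, 12.2 and 10.6 in the cold (log2 change -1.38 ± 0.10, adjusted p = 5.7e-05 by limma). Cox5a read 3.79, 4.22 and 3.95 at room temperature and 1.34, 2.03 and 1.25 in the cold (log2 change -1.38 ± 0.18, adjusted p = 3.4e-04 by limma). Cold libraries were the 3 lowest for both. Cox6a1, which had the highest level per exon kilobase among the nuclear subunits, read 39.3, 46.2 and 35.6 at room temperature and 20.98, 19.3 and 17.2 in the cold (log2 change -1.06 ± 0.13, adjusted p = 2.5e-04 by limma). Cox5b read 20.7, 16.4 and 15.5 at room temperature and 8.04, 7.31 and 7.56 in the cold (log2 change -1.17 ± 0.13, adjusted p = 1.6e-04 by limma). Cox8a read 36.9, 39.9 and 32.1 at room temperature and 19.4, 20.503 and 18.4 in the cold (log2 change -0.89 ± 0.11, adjusted p = 2.7e-04 by limma). In all of these the lowest room temperature library exceeded the highest cold library. Cox6b1, which faces the intermembrane space, read 4.30, 4.12 and 3.87 at room temperature and 2.03, 2.20 and 1.97 in the cold (log2 change -0.97 ± 0.09, adjusted p = 1.1e-04 by limma). Cox7a2 read 3.52, 3.75 and 3.48 at room temperature and 2.20, 2.41 and 1.84 in the cold (log2 change -0.72 ± 0.12, adjusted p = 0.0014 by limma). The others, Cox6c, Cox7b and Cox7c, fell by 0.54 to 0.95, and Cox7c, with several near-identical pseudogenes, was the one that did not pass without composition scaling.

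Complex V had the largest median fall among the nuclear groups, -1.13 over 15 genes, all called lower. Atp5b (chr10:128083273-128090391), the F1 beta subunit that holds the catalytic sites, read 75.8, 78.0 and 69.0 at room temperature and 23.4, 22.5 and 25.9 in the cold (log2 change -1.63 ± 0.10, adjusted p = 4.9e-05 by limma). Atp5a1, its F1 alpha partner, read 52.2, 48.0 and 47.9 at room temperature and 19.5, 19.6 and 20.4 in the cold (log2 change -1.31 ± 0.09, adjusted p = 5.2e-05 by limma). The cold libraries were the 3 lowest for both genes, and Atp5b fell further than Atp5a1: per exon kilobase the ratio of Atp5b to Atp5a1 was 0.837, 0.936 and 0.829 at room temperature and 0.691, 0.664 and 0.731 in the cold, without overlap. Atp5d, the F1 delta subunit of the central stalk, read 27.6, 28.2 and 24.0 at room temperature and 11.7, 11.7 and 9.89 in the cold (log2 change -1.26 ± 0.11, adjusted p = 8.3e-05 by limma). By part of the enzyme, the 5 F1 head and central stalk genes changed by -1.63 to -1.06 and the 3 c ring genes by -1.42 to -1.17. The 4 peripheral stalk genes changed by -1.02 to -0.56, and the 3 small membrane subunits Atp5j2, Atp5k and Atp5l by -1.13 to -0.63. Differences between these parts were not tested.

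The c ring that turns in the membrane is built from a single mature protein encoded by 3 genes, Atp5g1, Atp5g2 and Atp5g3. Atp5g3 (chr2:73908447-73911326) read 40.7, 39.1 and 36.2 at room temperature and 14.4, 15.7 and 13.0 in the cold (log2 change -1.42 ± 0.10, adjusted p = 5.4e-05 by limma). Atp5g1 read 10.1, 7.42 and 8.37 at room temperature and 3.56, 3.28 and 3.26 in the cold (log2 change -1.33 ± 0.13, adjusted p = 9.9e-05 by limma). All 3 genes fell, Atp5g2 by 1.17. Of their summed level per exon kilobase, Atp5g3 gave 47.7%, 46.8% and 47.8% at room temperature and 43.6%, 45.3% and 42.5% in the cold, while Atp5g2 gave 39.9%, 43.8% and 40.6% and then 45.1%, 44.7% and 46.4%. Neither pair of groups overlapped, with the share of Atp5g3 lower and that of Atp5g2 higher in every cold library. The shares rest on annotated exon lengths, so which gene is the largest source is uncertain. Atp5o, the stalk protein that confers oligomycin sensitivity, had only 24 to 59 reads per library. Its annotated span overlaps a second gene of the same name that is not a row of the table, so its level is uncertain.

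**Figure D2:**
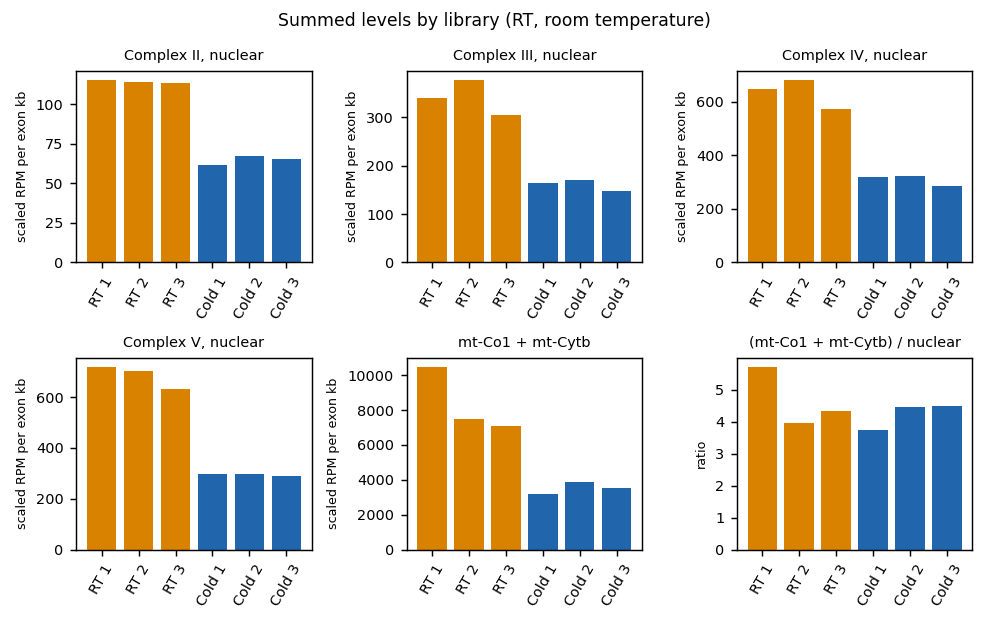
Bars give, for each library (RT, room temperature), the summed scaled RPM per exon kilobase of the nuclear subunits of complexes II to V and of mt-Co1 plus mt-Cytb, and in the last panel the ratio of the mitochondrial pair to all nuclear subunits. Cold libraries are lower in the 5 panels of sums, as for complex V at 287.7 to 298.6 against 633.3 to 718.0, and the groups overlap in the ratio.

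Summed by complex, as the plot of levels by library shows, the groups stood well apart. Nuclear complex II genes summed to 115.5, 114.0 and 113.7 scaled RPM per exon kilobase at room temperature and 61.4, 67.2 and 65.6 in the cold. Complex V genes summed to 718.0, 702.7 and 633.3 at room temperature and 298.6, 298.4 and 287.7 in the cold. Complex III ranged from 306.2 to 378.2 at room temperature and from 148.3 to 169.6 in the cold, and complex IV from 574.5 to 683.2 and from 285.9 to 324.4. Room temperature replicate 3, the library nearest the cold group on the first principal component, was the lowest of its group in every one of these sums. Without it, 52 respiratory chain genes fell and 3 rose. Across the 39 nuclear subunits, the level per exon kilobase at room temperature and the log2 change had a Spearman's rho of -0.42, a description over genes that share libraries. The room temperature level enters both measures, and the 0.5 RPM added before the log shrinks the falls of low genes. Each of these pushes rho below 0, so no trend with level is read from it.

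The 6 mitochondrially encoded subunits fell as well, with a median of -1.21. mt-Co1 (chrM:5328-6872), which holds the oxygen-binding centre of complex IV, read 6535, 4688 and 4491 at room temperature and 1908, 2349.7 and 2165.5 in the cold (log2 change -1.27 ± 0.18, adjusted p = 4.7e-04 by limma). mt-Cytb (chrM:14145-15288), the cytochrome b of complex III, read 3936, 2787 and 2621 at room temperature and 1258, 1512 and 1391 in the cold (log2 change -1.15 ± 0.18, adjusted p = 7.7e-04 by limma). In both genes room temperature replicate 1 was the highest library and all cold libraries lay below all controls. mt-Co2, which receives electrons from cytochrome c, read 153, 127 and 98.2 at room temperature and 43.2, 49.4 and 42.2 in the cold (log2 change -1.45 ± 0.16, adjusted p = 1.9e-04 by limma). mt-Co3 read 143, 84.1 and 83.9 at room temperature and 33.5, 41.7 and 33.6 in the cold (log2 change -1.46 ± 0.22, adjusted p = 8.0e-04 by limma). The groups did not overlap here either. mt-Atp6, the proton channel subunit of complex V, read 174, 110.3 and 102 at room temperature and 51.6, 62.6 and 59.3 in the cold (log2 change -1.11 ± 0.20, adjusted p = 0.002 by limma). mt-Atp8 read 163, 122 and 116 at room temperature and 61.98, 79.7 and 71.1 in the cold (log2 change -0.88 ± 0.16, adjusted p = 0.0016 by limma). Both were lower in every cold library.

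The levels of mt-Co2, mt-Co3, mt-Atp6 and mt-Atp8 were far under that of mt-Co1: mt-Co2 stood at 0.0195 to 0.0271 of mt-Co1 across the libraries. A nuclear copy of mitochondrial DNA on chromosome 1 carries mt-Co2 at 100% identity over 681 bases, mt-Atp6 over 678 and mt-Co3 over 783, so that their reads may have been shared or dropped in the authors' counting. mt-Cytb had no such copy among annotated transcripts. mt-Co1 had one of 99.8% identity over 483 bases. Another, on chromosome 2, had 97.6% over the full 1545 bases, so reads of mt-Co1 could be shared too. The level of mt-Atp8 was as low, and its exon overlaps that of mt-Atp6 by 43 bases. No annotated transcript copied mt-Atp8 at that threshold, but on mitochondrial DNA it lies between mt-Co2 and mt-Atp6. The chromosome 1 copies of these neighbours are at 24614885-24615565 and 24613974-24614651. The stretch between the copies was not searched, so a copy of mt-Atp8 there is possible. The values of these 4 genes are uncertain, and sums were taken over mt-Co1 and mt-Cytb.

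Set against each other, nuclear and mitochondrial transcripts of the chain gave a ratio that did not separate the groups. The ratio of mt-Co1 plus mt-Cytb to the sum of nuclear subunits, both per exon kilobase, was 5.71, 3.96 and 4.34 at room temperature and 3.74, 4.46 and 4.48 in the cold. These groups overlapped, and room temperature replicate 1 was the highest of the 6. All genes on mitochondrial DNA took 4.18%, 2.94% and 3.07% of listed-gene reads at room temperature and 1.57%, 1.91% and 1.75% in the cold. Within the mitochondrial pair, the ratio of mt-Co1 to mt-Cytb was 1.66, 1.68 and 1.71 at room temperature and 1.52, 1.55 and 1.56 in the cold, without overlap.

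Sequence around gene starts was searched for letters that known regulators of respiratory genes bind. Of the 63 genes, 42 had a RefSeq window of 250 bases before to 50 after the gene start. An NRF1-type palindrome, spelled in capitals in the Uqcrc1, Atp5g2 and Atp5k sites printed here, was in the windows of 4 of the 42 genes (9.52%), Cox6a1, Uqcrc1, Atp5g2 and Atp5k, against 1.07% of 27025 genes with windows and 1.83% of 13156 tested genes. The ETS-type letters CCGGAAG, which GABP binds, were found on either strand in 17 of the 42 (40.5%), against 9.93% and 15.7%. A longer YY1-type motif was in 1, Cox10 (2.38%), against 1.17% and 2.08%. Both strands were searched, and Cox6a1 and Atp5k held both of the first motifs. A match is a description of letters and shows no binding. The ETS-type letters were also in the window of Cox20, which rose. The 180 bases before the RefSeq start of Cox6a1, which fell and holds both motifs, of Uqcr11, the complex III gene with the largest fall, and of Cox20, with the opposite change, are shown 5′ to 3′ on the gene's strand of GRCm38.p6, with the motifs in capitals (an ETS-type match on the other strand reads CTTCCGG).
Cox6a1, chr5:115348959-115349138, minus strand: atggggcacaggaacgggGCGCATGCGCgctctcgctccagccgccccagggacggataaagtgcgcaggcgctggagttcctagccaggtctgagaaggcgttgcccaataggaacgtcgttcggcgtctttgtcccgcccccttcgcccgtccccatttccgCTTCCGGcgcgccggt
Uqcr11, chr10:80406822-80407001, minus strand: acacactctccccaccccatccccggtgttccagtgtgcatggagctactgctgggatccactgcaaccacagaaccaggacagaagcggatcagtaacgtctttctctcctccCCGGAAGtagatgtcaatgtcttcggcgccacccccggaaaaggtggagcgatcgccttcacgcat
Cox20, chr1:178318973-178319152, plus strand: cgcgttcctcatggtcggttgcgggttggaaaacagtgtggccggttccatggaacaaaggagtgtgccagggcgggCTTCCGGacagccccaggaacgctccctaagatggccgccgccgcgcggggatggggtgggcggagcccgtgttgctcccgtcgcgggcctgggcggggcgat
The other 3 NRF1-type matches are shown with 10 bases on either side, the motif in capitals.
Uqcrc1, chr9:108936668-108936697, plus strand: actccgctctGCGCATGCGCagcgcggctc
Atp5g2, chr15:102671070-102671099, minus strand: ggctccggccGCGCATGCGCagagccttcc
Atp5k, chr5:108434430-108434459, minus strand: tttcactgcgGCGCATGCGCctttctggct

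In Cox6a1 the NRF1-type letters begin 162 bases before the RefSeq start and the ETS-type letters 16 bases before it. In Uqcr11 the ETS-type letters begin 66 bases before the start, and in Cox20 103 bases before it. The NRF1-type letters begin 42 bases before the start in Atp5g2 and 50 before it in Atp5k. In Uqcrc1 they begin 30 bases after the start. The 30 bases shown for Uqcrc1 and for Atp5g2 lie wholly within an annotated exon, as do 19 of those for Atp5k. Of the 180 bases shown, an annotated exon covers 23 for Cox6a1, 9 for Uqcr11 and 23 for Cox20. The 23 of Cox6a1 include its ETS-type letters. Cox6a1 and Uqcr11 fell by 1.06 and 1.54 on the log2 scale and Cox20 rose by 1.34, so genes holding the ETS-type letters were found on both sides.

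Complex IV has subunit isoforms that replace the ubiquitous forms in particular tissues, and these did not move as one. Of the 6, Cox7b2 was listed at 0 in every library, 2 rose and 3 fell. Over all genes tested 35.5% rose and 35.0% fell, so nothing is read from counts over so few genes. Cox4i2 (chr2:152754173-152765037), the form of subunit 4 that is abundant in lung and is induced by low oxygen, read 0.117, 0.0549 and 0.587 at room temperature and 1.73, 1.33 and 1.44 in the cold (log2 change 2.82 ± 0.64, adjusted p = 0.0075 by limma). All cold libraries were above all controls, and room temperature replicate 3 was the highest control, with 25 to 692 reads per library. Without that library the log2 change was 3.57, and without any one of the others 2.25 to 2.91. With 2 RPM in place of 0.5 added before the log it was 2.14, and with RPKM plus 0.01 it was 3.45. Of Cox4i2 plus Cox4i1 per exon kilobase, Cox4i2 made up 1.27%, 0.634% and 7.003% at room temperature and 33.9%, 27.9% and 32.8% in the cold. The authors' deposited table also had Cox4i2 higher, with a log2 fold change of 2.83 and a q of 0.000105. Some markers of lung vessels moved with Cox4i2, and others did not. The summed endothelial markers were also highest among controls in replicate 3. So was Pdgfrb, a pericyte receptor, at 0.231, 0.138 and 0.416 at room temperature and 1.70, 1.34 and 1.47 in the cold. Across the 10 smooth muscle and pericyte markers, Pdgfrb included, 5 fell and 3 rose. Rgs5 and Notch3 rose too, but replicate 3 was not their highest control. Cspg4 passed in neither direction (log2 change 0.07), and Acta2 (-2.39) and Myh11 (-2.09) were among those that fell. The sum of the list was 208.8 to 258.7 at room temperature and 36.0 to 58.0 in the cold, with none at 0 in every library. Their part in the Cox4i2 result was not tested.

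The heart and muscle isoforms Cox6a2, Cox7a1 and Cox8b fell. Cox6a2 (chr7:128205435-128206387) read 38.8, 10.3 and 28.5 at room temperature and 8.15, 7.58 and 7.92 in the cold (log2 change -1.46 ± 0.45, adjusted p = 0.026 by limma). Cox7a1 read 3.54, 1.19 and 3.14 at room temperature and 0.883, 0.565 and 0.803 in the cold (log2 change -1.41 ± 0.37, adjusted p = 0.01 by limma). Cox8b read 1.53, 0.527 and 1.00 at room temperature and 0.144, 0.109 and 0.339 in the cold (log2 change -1.31 ± 0.31, adjusted p = 0.0061 by limma). In each gene room temperature replicates 1 and 3 were high and replicate 2 lay much nearer the cold libraries, though still above them. Summed cardiomyocyte markers had the same order among controls. So did the sums of skeletal muscle, smooth muscle and pericyte, adipocyte and brown fat, and alveolar macrophage markers. Over 12 cardiomyocyte markers, scaled RPKM was 368.6, 103.2 and 360.4 at room temperature and 53.9, 24.1 and 39.3 in the cold. Of these 12 markers 9 were lower by limma, and none was at 0 in every library. Skeletal muscle markers, 4 of the 5 tested lower, summed to 29.7, 20.3 and 22.8 at room temperature and 0.761 to 1.07 in the cold. The adipocyte and brown fat sum was 18.2, 8.94 and 10.9 at room temperature. The part of RNA from any of these cell types in the fall of these isoforms was not tested. The Cox6a2 call did not hold without composition scaling (adjusted p = 0.067 by limma), nor without room temperature replicate 3 (0.074) or any one of the cold libraries (0.062 to 0.066). Cox6a2 lies wholly within the span of Itgad on the opposite strand, and Cox8b had as few as 6 reads in a library.

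As shares of isoform plus ubiquitous partner per exon kilobase, only Cox4i2 and Cox6b2 of the 5 tested isoforms had cold libraries apart from controls. Cox6a2 made up 22.6%, 6.17% and 19.1% at room temperature and 10.3%, 10.4% and 11.9% in the cold. For Cox7a1 the shares were 43.2%, 19.3% and 40.5%, then 23.3%, 15.1% and 24.8%. For Cox8b they were 4.17%, 1.37% and 3.18%, then 0.771%, 0.556% and 1.90%. The groups overlapped in all 3, with control replicate 2 among the cold libraries or below them. Cox6b2, known as the testis form, read 2.49, 1.99 and 3.73 at room temperature and 4.85, 4.89 and 3.73 in the cold (log2 change 0.67 ± 0.23, adjusted p = 0.03 by limma), so that the highest control and the lowest cold library nearly met. Its call was lost with the replicate block (adjusted p = 0.053 by limma). It made up 4.93%, 4.15% and 7.94% of Cox6b2 plus Cox6b1 at room temperature and 17.6%, 16.6% and 14.5% in the cold.

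**Figure D3:**
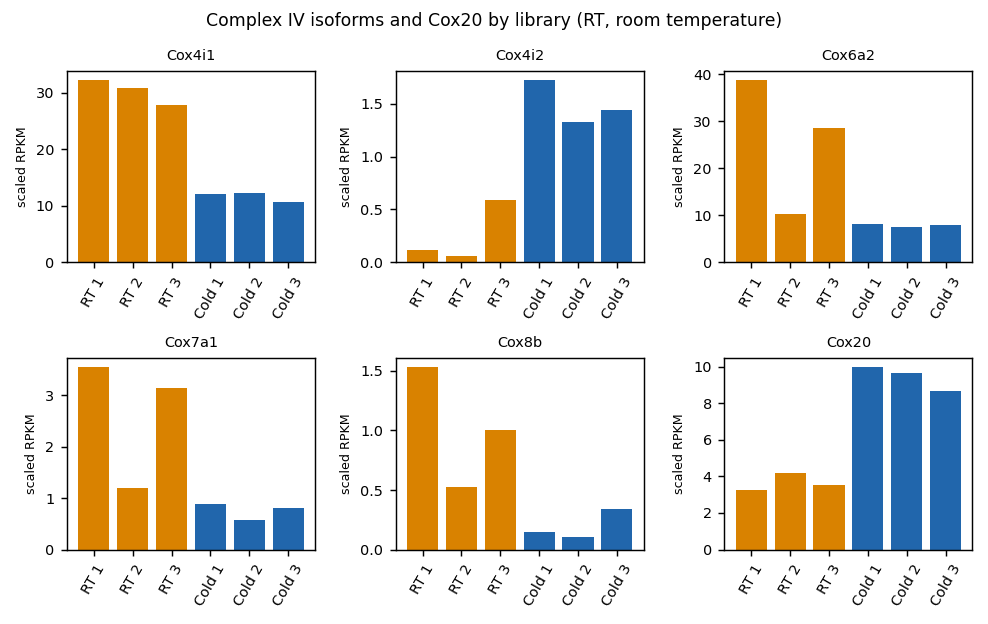
Scaled RPKM in each library (bars, vertical axes starting at 0) for Cox4i1, 4 complex IV isoforms and Cox20, with room temperature libraries in orange and cold libraries in blue. Cox4i2 and Cox20 are higher in every cold library, and room temperature replicate 2 is the low control for Cox6a2, Cox7a1 and Cox8b.

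The bars by library show 2 patterns among controls, with replicate 3 highest for Cox4i2 and replicate 2 lowest for the muscle isoforms.

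Of the 9 assembly factors of complex IV, 4 were lower, 1 was higher and 4 passed in neither direction, with a median of -0.26. Over all genes tested, 35.0% fell and 35.5% rose, so the lower calls lie near the background. Without composition scaling 3 of the 9 were lower and 3 higher. Cox20 (chr1:178319130-178322693), a chaperone of newly made subunit 2, read 3.23, 4.17 and 3.54 at room temperature and 9.97, 9.64 and 8.65 in the cold (log2 change 1.34 ± 0.12, adjusted p = 8.6e-05 by limma). Every cold library was above every control, and the authors' deposited table also had it higher, with a q of 0.0465. Cox20 shares 1586 bases of its span, 804 of them exonic, with Hnrnpu on the opposite strand, and a pseudogene of 97.2% identity exists, so the source of its reads is uncertain. Cox14, which acts in the making of subunit 1, read 15.002, 16.6 and 12.6 at room temperature and 6.81, 7.50 and 6.59 in the cold (log2 change -1.05 ± 0.12, adjusted p = 2.2e-04 by limma). Cox10, which makes a haem A precursor, read 0.110, 0.148 and 0.0955 at room temperature and 0.0649, 0.0547 and 0.0483 in the cold (log2 change -1.01 ± 0.19, adjusted p = 0.0019 by limma). Both were lower in every cold library. Cox16 fell by 0.63 and Cox18, which inserts subunit 2, by 0.50. The Cox18 call did not hold without composition scaling (adjusted p = 0.22 by limma) or without cold replicate 1 (0.056) or 2 (0.067).

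The copper chaperone Cox17 read 2.91, 3.48 and 2.82 at room temperature and 2.87, 3.00 and 3.14 in the cold (log2 change -0.03 ± 0.11, adjusted p = 0.83 by limma), with overlapping groups. Without composition scaling its sign turned and it was called higher (log2 change 0.29, adjusted p = 0.036 by limma), as was the copper factor Cox11 (0.53, adjusted p = 0.012 by limma). Cox17 shares its span with Gm21987 and Cox11 shares 688 exonic bases with Tom1l1, so both values are uncertain. Cox15, which completes haem A, and Cox19 had log2 changes of -0.02 and -0.26 and passed in neither direction, and both signs turned without composition scaling, to 0.30 and 0.05, still without a call. Cox7a2l, which joins complexes III and IV into supercomplexes, read 4.78, 4.93 and 5.03 at room temperature and 3.88, 4.39 and 4.57 in the cold (log2 change -0.20 ± 0.10, adjusted p = 0.094 by limma). Cold libraries were slightly lower in that gene, but without composition scaling the sign turned to 0.12. Atp5s, the coupling factor B gene, read 0.286, 0.373 and 0.302 at room temperature and 0.215, 0.197 and 0.162 in the cold (log2 change -0.67 ± 0.17, adjusted p = 0.0076 by limma), and its call did not hold without composition scaling (adjusted p = 0.069 by limma). Atp5sl, now known as an assembly factor of complex I rather than V, read 2.13, 3.08 and 1.92 at room temperature and 2.39, 2.23 and 1.72 in the cold (log2 change -0.15 ± 0.20, adjusted p = 0.52 by limma), and its groups overlapped.

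Other mitochondrial genes give the setting. Complex I oxidises NADH at the start of the chain. Among genes taken by its subunit symbols, Ndufa4 included, 37 of 37 nuclear genes fell with a median of -0.86, and 6 of 7 mt-Nd genes fell with a median of -1.27. Of 17 genes of the mitochondrial membranes and matrix, 16 fell (median -0.82), from the ADP/ATP carrier Slc25a5 (-1.75) to the import receptor Tomm20 (-0.31), and Timm44 passed in neither direction (0.13). Without composition scaling the complex I count was 31 of 37 and the membrane and matrix count 11 of 17, with 1 higher. Of 32 assembly genes and associated factors of complexes II to V outside the rule, 18 fell and 1 rose (median -0.52). The falls included Atpif1, the inhibitor of ATP synthase (-1.45), and Coa3, an early complex IV factor (-1.14). The gene that rose was Hccs, which attaches haem to cytochrome c (0.72). Without composition scaling these 32 genes had 11 lower and 5 higher.

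**Figure D4:**
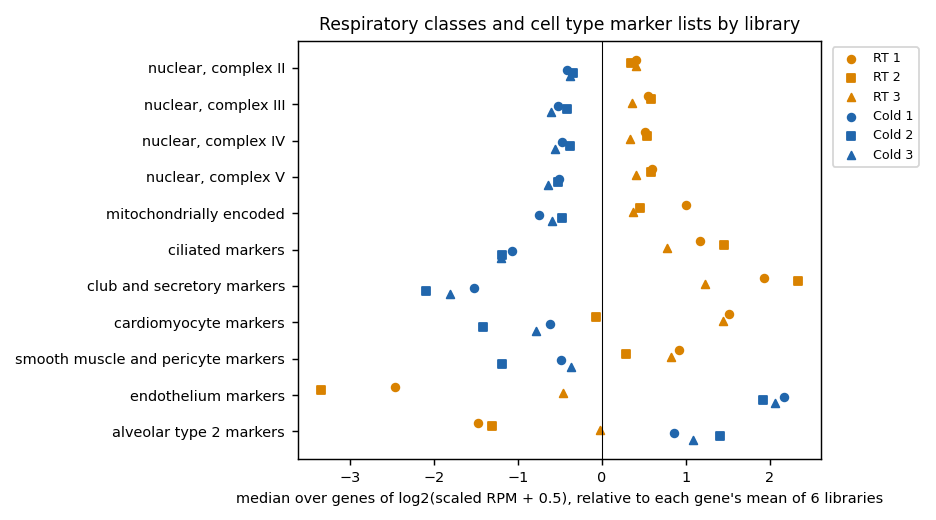
Median over genes of log2(scaled RPM + 0.5) relative to each gene's mean of the 6 libraries (horizontal axis), one point per library, for respiratory chain groups and cell type marker lists, with room temperature (RT) in orange and cold in blue. Complex V lies at 0.41 to 0.60 at room temperature and -0.65 to -0.51 in the cold, and endothelial markers at -3.34 to -0.46 and 1.92 to 2.17.

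Genes that act on the chain from outside it moved in both directions, with counts to be read against the 35.5% of all tested genes that rose and the 35.0% that fell. Of 9 nuclear regulators, 4 rose, Nrf1 (0.74), the GABP beta subunit Gabpb1 (0.75), Pprc1 (0.74) and Sp1 (0.45). Another 3 fell, the coactivators Ppargc1a (-1.30) and Ppargc1b (-0.50) and the receptor Esrra (-0.74), while Gabpa and Yy1 passed in neither direction. Without composition scaling 5 of the 9 rose and 2 fell. Ppargc1a, known as a driver of mitochondrial biogenesis, read 0.108, 0.117 and 0.0861 scaled RPKM at room temperature and 0.0364, 0.0430 and 0.0385 in the cold, without overlap. Of 14 tested genes for keeping and transcribing mitochondrial DNA, 5 rose and 2 fell. The mitochondrial DNA polymerase Polg read 1.10, 1.07 and 1.35 at room temperature and 2.96, 2.92 and 2.69 in the cold (log2 change 1.27 ± 0.12, adjusted p = 8.5e-05 by limma). Tfam, which packages mitochondrial DNA and starts its transcription, had a log2 change of -0.07 and passed in neither direction. Tefm, the elongation factor (-0.59), and Slirp, which stabilises mitochondrial mRNA (-0.40), were the 2 that fell. Without composition scaling 7 of the 14 rose and neither of these fell.

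As the plot of medians by library and gene group shows, the medians of several marker lists lay further apart between groups than those of the respiratory genes, with a log2 change of -2.23 for ciliated and 4.10 for endothelial markers. All 14 ciliated markers with a row fell, and their summed scaled RPKM was 305.8 to 473.6 at room temperature and 60.1 to 91.3 in the cold, with none at 0 in every library. Of 8 tested adipocyte and brown fat markers 6 fell and 1 rose, and the list's sum was 8.94 to 18.2 at room temperature and 9.51 to 11.4 in the cold. Erythroid markers, 7 of 7 higher, summed to 40.7 to 229.5 at room temperature and 708.6 to 898.5 in the cold, and alveolar macrophage markers, 7 of 8 higher, to 6.46 to 12.1 and 22.2 to 30.3. The part of these cell types in the fall of the respiratory chain genes was not tested.

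Overlap and copies of genes could mix reads, since whether the libraries kept strand is unknown here. Exons of 17 of the 63 genes share bases with another listed protein-coding gene, and 23 have a copy elsewhere of at least 95% identity over at least 100 bases. Copies were searched among annotated transcripts only. Among the 45 tested genes without such overlap 40 fell and 2 rose, and among the 39 without a copy found 33 fell and 2 rose. Over all genes tested 35.0% fell and 35.5% rose.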

How the data were processed

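The authors deposited 1 RPKM value per gene and library, rounded to 3 decimals, with their own log2 fold change, p-value and q-value. The genome build was mm10, per the submitters' processing notes, and the library kit was NEBNext Ultra II RNA according to the labels' protocols. Aligner, counter, strand and the authors' test were not given in the sources used here. Although the table is named as raw counts, values times gene span in GENCODE M21 fell on whole multiples of 1 step per library, which gives the depth, 32.7 to 48.7 M reads. Whether reads or fragments were counted is unknown. There were 0 columns of libraries without a sample. Of 18174 rows, 92 had no span and were left out.

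RPM (RPKM times span in kb) was divided by a trimmed mean of M values (trimming 30% of log ratios and 5% of averages at either end), called composition scaling. The model was fitted with limma 3.58.1 (R 4.3.3) to log2(scaled RPM + 0.5), with trend and robust options, two-sided, with Benjamini-Hochberg adjustment over 15238 genes and a threshold of 0.05. Tested genes reached 15 reads in all and, in 3 or more libraries, a level worth 10 reads at median depth. This log2 scale understates changes of low genes. Because the values are RPKM, edgeR and DESeq2 were not run. voom on recovered reads was an alternative. Of recovered reads in short genes, 83.1% to 86.3% were whole within 0.1.

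Replicate pairs differed by more than sampling noise (chi-square per degree of freedom 15.4 to 84.8). The reported fit has no term for replicate number. Deviations of same-numbered libraries correlated at 0.115, 0.149 and 0.155 across genes, so a fit with the number as a block is given where it changed a call. The labels do not say what a number shares.

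The rule for the genes uses symbols only, and it, the lists and the roles were chosen with earlier results of these data known. Values by library are given for mitochondrial, complex II and isoform genes with their partners, for genes called higher, and in each other class for the 3 with the highest mean RPM and the 3 with the largest change. Atp5h, Atp5g2 and the other genes given only by their change fall outside that rule. Motifs and sequences are from RefSeq promoter windows of GRCm38.p6, and copies were searched with BLAST 2.17.0 against M21 transcripts.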

Additional observations from a re-analysis of the deposited data

How the results depend on the processing

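The count of genes called lower was 53 as reported and also 53 under median-of-ratios scaling, scaling without mitochondrial and haemoglobin genes, 0.1 or 2 RPM added before the log, no read filter and voom. It was 51 with a filter of 50 reads, which left fewer genes tested and changed no call among those that remained. Without composition scaling all tested genes split into 7034 higher and 3766 lower, against 5412 and 5335, and the respiratory chain genes into 5 higher and 48 lower, as they did with RPKM plus 0.01. The medians for complexes II, III, IV and V and the mitochondrial subunits were then -0.49, -0.66, -0.64, -0.82 and -0.88, and with RPKM plus 0.01 -0.50, -0.67, -0.65, -0.85 and -0.88. With 2 RPM added the complex V median was -1.02. A fall of at least 1 on the log2 scale left 28 genes. Leaving out 1 library at a time gave 51 to 53 lower, 2 to 3 higher and a complex V median of -1.26 to -1.07. With the replicate number as a block 53 fell and 2 rose, and Cox6b2 (adjusted p = 0.053 by limma) was the one call it changed among them. Cox6b2 was also not called without room temperature replicate 1 (adjusted p = 0.090 by limma) or 2 (0.071) or cold replicate 1 (0.087) or 2 (0.086). Signs turned in 5 genes, none of them called as reported: Cox15 and Cox19 to 0.30 and 0.05 without composition scaling and with RPKM plus 0.01, Cox15 also to 0.05 and 0.06 without cold replicate 1 or 2; Cox17 to 0.29 without composition scaling, 0.30 with RPKM plus 0.01, and between -0.112 and 0.046 when 1 library was left out, above 0 without room temperature replicate 2 or cold replicate 1; Cox7a2l to 0.12 in both of the first settings; and Atp5sl to 0.165 and 0.17 there, and between -0.311 and 0.0281 when 1 library was left out, above 0 without room temperature replicate 2 or cold replicate 3. Cox4i2 was the one called gene whose fold moved by over 1.5 times when 1 library was left out, to a log2 change of 3.57 without room temperature replicate 3. The cause was not tested beyond the shift of the median of all genes to 0.29 that scaling by depth alone gives.

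Low read counts limit Cox4i2, Cox7a1, Cox8b and Atp5o, which had under 100 reads in the library where each was lowest. For Cox4i2 that library was room temperature replicate 2, the deepest. With 3 libraries a group, interval widths rest on the pooled spread of limma. Room temperature and cold libraries differ in markers of many cell types, so treatment and cell makeup cannot be told apart in this bulk tissue.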

Other observations

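The uncoupling genes, which let protons pass the inner membrane without making ATP or are related to those that do, gave opposite directions. Ucp2, the form common in lung and immune cells, read 52.4, 66.5 and 44.0 scaled RPKM at room temperature and 25.3, 23.8 and 19.7 in the cold (log2 change -1.23 ± 0.17, adjusted p = 4.8e-04 by limma), with no overlap. Ucp3, the muscle form, read 0.0469, 0.0175 and 0.0367 at room temperature and 0.137, 0.138 and 0.131 in the cold (log2 change 1.30 ± 0.20, adjusted p = 7.7e-04 by limma), again with no overlap. Levels of Ucp3 were low in both groups, so the 0.5 RPM added before the log understates its change. Ucp1, the heat-producing form of brown fat, had too few reads to be tested, at 0 to 0.0133 scaled RPKM.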
